A study of Mus musculus with 4 samples.

Results

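The enzymes described here are those that modify and clear foreign compounds, drugs and some hormones: cytochromes P450 of the Cyp1 to Cyp4 families, flavin-containing monooxygenases (Fmo), glutathione S-transferases (Gst), sulfotransferases (Sult) and UDP-glucuronosyltransferases (Ugt). They were chosen by gene name on the array, with all probes of a gene kept and with Cyp2f2, Cyp4b1 and Fmo2 left out, and comprised 147 of 41174 probes and 102 of 28479 genes. RNA was measured in mouse lungs at E18.5, shortly before birth, in Fgf8 hypomorphs (genotype Fgf8H/-) and in wild type littermates (Fgf8+/+), both on a mixed background given as c57nl7/sv129. The FGF8 protein is a growth factor that cells secrete, and the mutant genotype pairs a hypomorphic allele, of reduced function, with a null allele. Lobes were taken free of large airways and vessels, 3 lungs of a genotype were pooled per RNA sample, and 4 hypomorph pools (Cy5) were each hybridised with 1 wild type pool (Cy3) on a two-colour Agilent array.

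Xenobiotic metabolism is commonly divided into phases. In phase I, P450 and Fmo enzymes add or expose an oxygen-containing group, drawing electrons from NADPH. In phase II, Gst, Sult and Ugt enzymes attach glutathione, sulfate or glucuronic acid, which makes the product easier to export by membrane transporters. The liver holds most of this capacity, and in the lung club cells, alveolar type II cells and endothelium are the best known sites.

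Values are log2 ratios of hypomorph over wild type, so that a positive value means higher in the hypomorph, and are given as mean ± SD over 4 arrays unless another n is stated. Calls were made at an adjusted p under 0.05 in limma's moderated test with Benjamini-Hochberg adjustment over all probes tested. Between 32731 and 34519 of 43379 spots per array were well above background for the hypomorph, and between 32491 and 33744 for the wild type. Spike-in controls gave slopes of 0.69 to 0.718 against their expected log ratios, so ratios are compressed. The dyes were never exchanged, so dye and genotype effects on a probe cannot be told apart. In whole lung, fewer cells of a type and less RNA per cell cannot be told apart either. Fgf8 itself had a ratio of -0.18 ± 0.11 by its tested probe and was not called (adjusted p = 0.0572). It was called lower under 5 of the 15 alternative ways of processing that kept all replicates. A second Fgf8 probe was at background and was not tested. Where the alleles are altered relative to these probes is not stated by the labels, so the Fgf8 ratio does not check the genotypes.

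Of the 147 member probes, 88 (71 genes) were bright enough to be tested, and 25 of these, or 28.4%, were called, against 24.9% of all 29991 probes tested. That share is near the background and is not a result about the families as a whole. Among the called probes, 7 (7 genes) were higher and 18 (14 genes) were lower in the hypomorph, where 12.7% of all probes were called higher and 12.2% lower. The median ratio was 5.63e-04 over the tested members and -0.00453 over all tested probes. The changes were small: the called members differed by 1.11-fold to 1.54-fold with a median of 1.24-fold, against a median of 1.22-fold over all called probes. Only Ugt2b34 passed 1.5-fold, which 1.82% of all tested probes did while being called. All 25 called probes had the same sign on every array with a value. A call on 3 or 4 arrays largely requires this, so it is not separate support. Leaving out replicate 2 left 5 called member probes, leaving out replicate 3 left 7, leaving out replicate 4 left 16 and leaving out replicate 1 left 21. The called share of all probes was 5.92%, 8.5%, 16.9% and 27.8% in the same order.

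**Figure D1:**
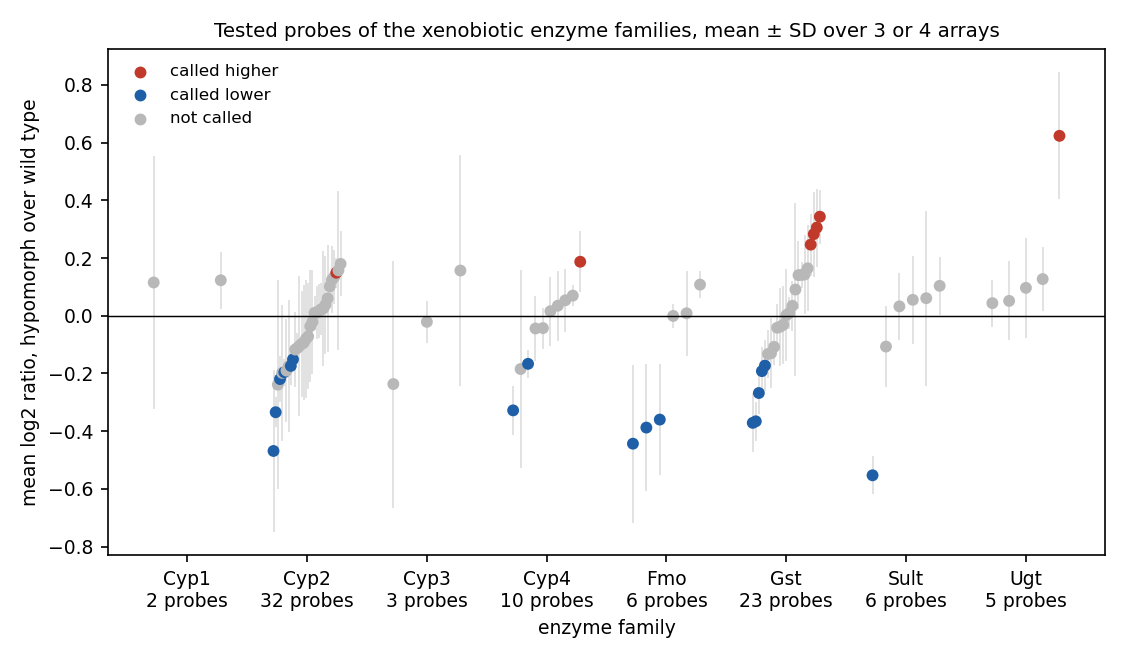
Mean log2 ratio of hypomorph over wild type (vertical axis) for tested probes, by enzyme family, with the SD over 3 or 4 arrays as a grey line. Called probes are red (higher in the hypomorph) or blue (lower). The called Fmo1 and Fmo4 probes lie between -0.44 and -0.36, Gst probes lie on both sides of 0, and Sult1a1 at -0.55 and Ugt2b34 at 0.62 stand at the ends.

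One choice of processing bears on the direction of several bright probes. The ratios here were normalized by loess, which sets the ratio to 0 on average at each brightness. With each array centred on its median instead, the median of all tested probes was 0.1, and bright probes in general took higher ratios: 74.2% of all calls were then higher in the hypomorph, against 50.9% after loess. Of the 88 member probes, 30 changed sign, of which 9 were called in 1 of the settings and are given with both values below, and 21 were called in neither. A further 7 kept their sign but were called only after loess, and 13 only after median centring.

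**Figure D2:**
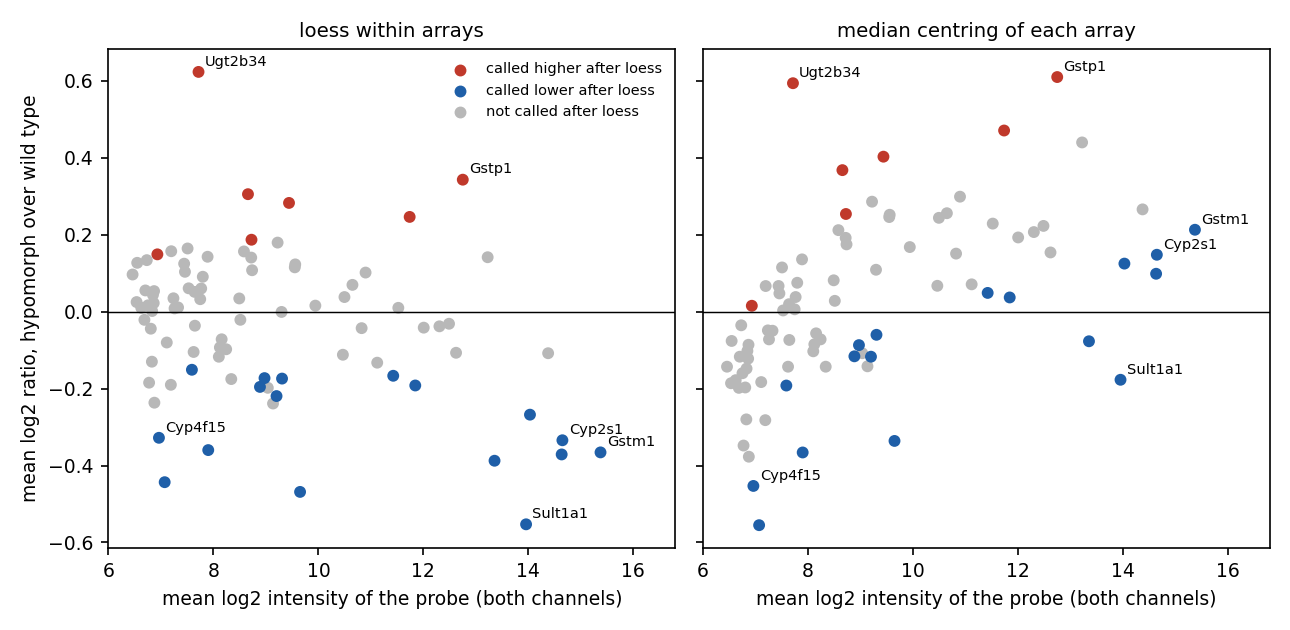
Mean log2 ratio of hypomorph over wild type (vertical axes) against mean log2 intensity (horizontal axes) for tested member probes, after loess (left) and after median centring (right), coloured by the call after loess. Sult1a1 and Cyp4f15 lie below 0 and Ugt2b34 and Gstp1 above 0 in both panels, whereas Gstm1 and Cyp2s1 lie below 0 on the left and above 0 on the right.

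Among the P450 enzymes, no member of the Cyp1 and Cyp3 families was called by limma, and none of their 2 and 3 tested probes had an unadjusted p under 0.05. Cyp1a1, the P450 most strongly induced through the aryl hydrocarbon receptor, had ratios of 0.19, 0.09, 0.62 and -0.44 on arrays 1 to 4, which spread on both sides of 0 (0.12 ± 0.44, adjusted p = 0.607). Cyp1b1, which oxidises oestrogens and polycyclic hydrocarbons, lay above 0 on all 4 arrays at 0.12 ± 0.10 without passing (adjusted p = 0.126), and was called higher after median centring (0.25). Both Cyp1a2 probes were at background. In the Cyp3 family, whose human members metabolise a large part of all drugs, Cyp3a41a (-0.24 ± 0.43), Cyp3a13 (0.16 ± 0.40) and Cyp3a11 (-0.02 ± 0.07) were tested, and each had arrays on both sides of 0. Cyp3a41a was called lower after median centring (-0.38), where Cyp3a11 was at 0.03.

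The Cyp2 family was the largest, with 32 of 53 probes tested, and had 1 probe called higher and 6 lower. Of the 6, 5 belonged to 2 genes of the Cyp2d cluster on chromosome 15, in a family whose human member CYP2D6 metabolises many basic drugs. Cyp2d22 was called lower by all 3 of its probes. Its probe at 82203253 to 82203312 (build mm8, as are all probe positions here) read -0.89, -0.35, -0.34 and -0.29 on arrays 1 to 4 (-0.47 ± 0.28, adjusted p = 0.0255), with array 1 far below the rest. Without replicate 1 this probe was at -0.33 and still called. The other Cyp2d22 probes had -0.20 ± 0.05 (adjusted p = 0.0229) and -0.15 ± 0.03 (adjusted p = 0.0415), below 0 on every array. Cyp2d9 was called lower by both of its probes, at -0.22 ± 0.08 (adjusted p = 0.0236) and -0.17 ± 0.07 (adjusted p = 0.0378). The ratios of the first were -0.27, -0.29, -0.11 and -0.20, and those of the second -0.27, -0.16, -0.13 and -0.14, so no array lay above 0. The Cyp2d9 probes overlap, at 82284133 to 82284192 and 82284166 to 82284225, so they are not independent. None of the 5 Cyp2d calls held without replicate 2 or without replicate 3, where their adjusted p lay between 0.0549 and 0.154. All but the Cyp2d22 probe with the low array 1 were also lost without replicate 4 (adjusted p between 0.062 and 0.0952). After median centring both Cyp2d9 probes, at -0.12 and -0.06 (adjusted p = 0.166 and 0.465), and the Cyp2d22 probe with -0.20 after loess, at -0.12 (adjusted p = 0.162), were not called. The Cyp2d9 calls were also lost with the scanner's processed signals and with the deposited series table. The second Cyp2d9 probe was lost without replicate 1 (adjusted p = 0.054). Letting the variance follow intensity, with robust estimation, also ended that call and the call of the Cyp2d22 probe with -0.15. The Cyp2d26 probe (-0.19 ± 0.18) and both probes of Cyp2d10 (-0.08 ± 0.20 and 0.03 ± 0.20) were not called after loess. After median centring Cyp2d26 was called lower (-0.28), and the second Cyp2d10 probe stood at -0.19.

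The upstream sequences of Cyp2d9 and Cyp2d10 were 74.7% identical over 297 bases of their promoter windows without gaps, and are shown where they are most alike, next to the start, where 105 of 120 aligned bases match (87.5%). The stretches below, 5′ to 3′ and ending 1 and 4 bases before the start of transcription, are from RefSeq (GRCm38.p6), chr15:82452257-82452376 on the plus strand for Cyp2d9 and chr15:82407198-82407317 on the minus strand for Cyp2d10. Capitals mark the bases that differ between the pair.
Cyp2d9: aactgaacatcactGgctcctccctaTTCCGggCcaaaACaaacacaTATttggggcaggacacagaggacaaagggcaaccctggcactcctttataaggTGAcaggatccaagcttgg
Cyp2d10: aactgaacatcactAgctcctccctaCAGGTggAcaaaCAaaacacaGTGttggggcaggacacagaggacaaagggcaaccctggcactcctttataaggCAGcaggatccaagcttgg
Transcripts of close gene copies can bind each other's probes, so the ratios of Cyp2d9 and Cyp2d10 may each hold signal of the other. Likeness of these windows, which lie mostly upstream of the transcript, cannot show this. Probe and transcript sequences were not compared here. Promoter windows were more alike in Cyp2b9 and Cyp2b13, 99.3% identical over 300 bases, and in Cyp2a4 and Cyp2a5, 98.3% over 299. Sharing of signal between their probes was not tested either.

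Cyp2s1, an epithelial P450 of the airways and skin, was lower at -0.29, -0.32 and -0.39 on the 3 arrays with a value (-0.33 ± 0.05, adjusted p = 0.0131) but stood at 0.15 after median centring, which was not called. Cyp2c29, which belongs to the enzymes that oxidise arachidonic acid to epoxides, was higher at 0.15, 0.08, 0.20 and 0.17 (0.15 ± 0.05, adjusted p = 0.0499). This call was at the edge of the threshold and was lost without any 1 of the 4 replicates (adjusted p between 0.0607 and 0.176). After median centring the ratio was 0.02 (adjusted p = 0.868), and the call was also lost with a loess span of 0.1, with no filter on dim probes and with separate channels. Cyp2c23, another arachidonic acid epoxygenase named Cyp2c44 on the array, was above 0 on all arrays at 0.18 ± 0.11 and was not called after loess (adjusted p = 0.0588), but was after median centring (0.29). The nicotine and coumarin oxidising enzyme Cyp2a5 read below 0 on arrays 2 to 4 and above 0 on array 1 by both probes, and neither was called (-0.20 ± 0.24 and -0.18 ± 0.23).

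Cyp4 enzymes hydroxylate fatty acids and eicosanoids at the chain's end. Of 10 tested probes, 1 was called higher and 2 lower. Cyp4f15 was lower on every array, at -0.45, -0.28, -0.28 and -0.31 (-0.33 ± 0.08, adjusted p = 0.00793), and its intensity was close to background, at 6.72 to 6.93 in the hypomorph and 7.04 to 7.21 in the wild type on the log2 scale. The genotypes did not overlap, and the call held under every one of the 19 alternatives, with ratios between -0.71 and -0.29. Cyp4v3, a fatty acid hydroxylase whose human counterpart CYP4V2 is mutated in a retinal dystrophy, was lower after loess (-0.17 ± 0.05, adjusted p = 0.0364) but stood at 0.05 after median centring. It was not called without any 1 of the replicates (adjusted p between 0.0525 and 0.133). The 2 probes of Cyp4f16 differed: one was called higher (0.19 ± 0.11, adjusted p = 0.0491) and the other was not (0.07 ± 0.04, adjusted p = 0.242), although both lay above 0 on all arrays. After median centring both were called higher, at 0.25 and 0.26. The call after loess was lost without any 1 of the replicates (adjusted p between 0.0545 and 0.154) and under 7 of the other alternatives. The peroxisome proliferator responsive Cyp4a14 (-0.18 ± 0.34) and Cyp4x1 (0.05 ± 0.11) were not called after loess, and after median centring Cyp4a14 was called lower (-0.35) and Cyp4x1 stood at -0.09.

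The Fmo family oxidises nitrogen and sulfur atoms of drugs. Both probes of Fmo1 and the tested probe of Fmo4 were lower in the hypomorph, and none of the 3 probes of Fmo5 was called, of which 1 had an unadjusted p under 0.05. Fmo1 read -0.42, -0.45, -0.60 and -0.08 on arrays 1 to 4 by its brighter probe (-0.39 ± 0.22, adjusted p = 0.0242). The log2 intensities of this probe were 13.23, 13.12, 13.02 and 13.28 in the hypomorph, against 13.64, 13.57, 13.62 and 13.37 in the wild type. Its dimmer probe read -0.73, -0.44, -0.53 and -0.07 (-0.44 ± 0.27, adjusted p = 0.0275). By both probes array 4 was near 0 and the other arrays were at -0.42 or lower. Fmo4 showed the same order of array 4 above the rest, at -0.35, -0.57, -0.40 and -0.11 (-0.36 ± 0.19, adjusted p = 0.0222).

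The calls of Fmo1 and Fmo4 ended without replicate 2 (adjusted p = 0.109 and 0.108 for Fmo1, 0.0906 for Fmo4) and without replicate 3 (0.0976, 0.0848 and 0.0841). The brighter Fmo1 probe was also lost after median centring, at -0.08, and with the scanner's processed signals.

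Fmo1 and Fmo4 lie in a cluster on chromosome 1, with probes from 164630653 to 164668312, whereas Fmo5 lies on chromosome 3 from 97737582. Fmo6, in the same cluster, was at background. The Fmo5 probes had ratios of 0.11 ± 0.05 (adjusted p = 0.107), 0.01 ± 0.15 and -0.00 ± 0.04 after loess, and 0.18 (called higher), -0.07 and 0.11 after median centring. Fmo2, which lies within the chromosome 1 cluster and was left out of the families by the rule, was lower by all of its probes (-0.53 ± 0.11, -0.43 ± 0.13 and -0.35 ± 0.09), as was the also left out Cyp4b1 (-0.57 ± 0.05, n = 3), whereas Cyp2f2 was not called (0.15 ± 0.05, n = 3). These 3 genes depended on the scaling: after median centring the brightest Fmo2 probe (-0.17, adjusted p = 0.0983) and Cyp4b1 (-0.16, adjusted p = 0.126) were not called, and Cyp2f2 was called higher (0.86, adjusted p = 2.81e-05). Neighbouring genes and probes of the same gene are not independent, and the difference from Fmo5 was not tested.

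**Figure D3:**
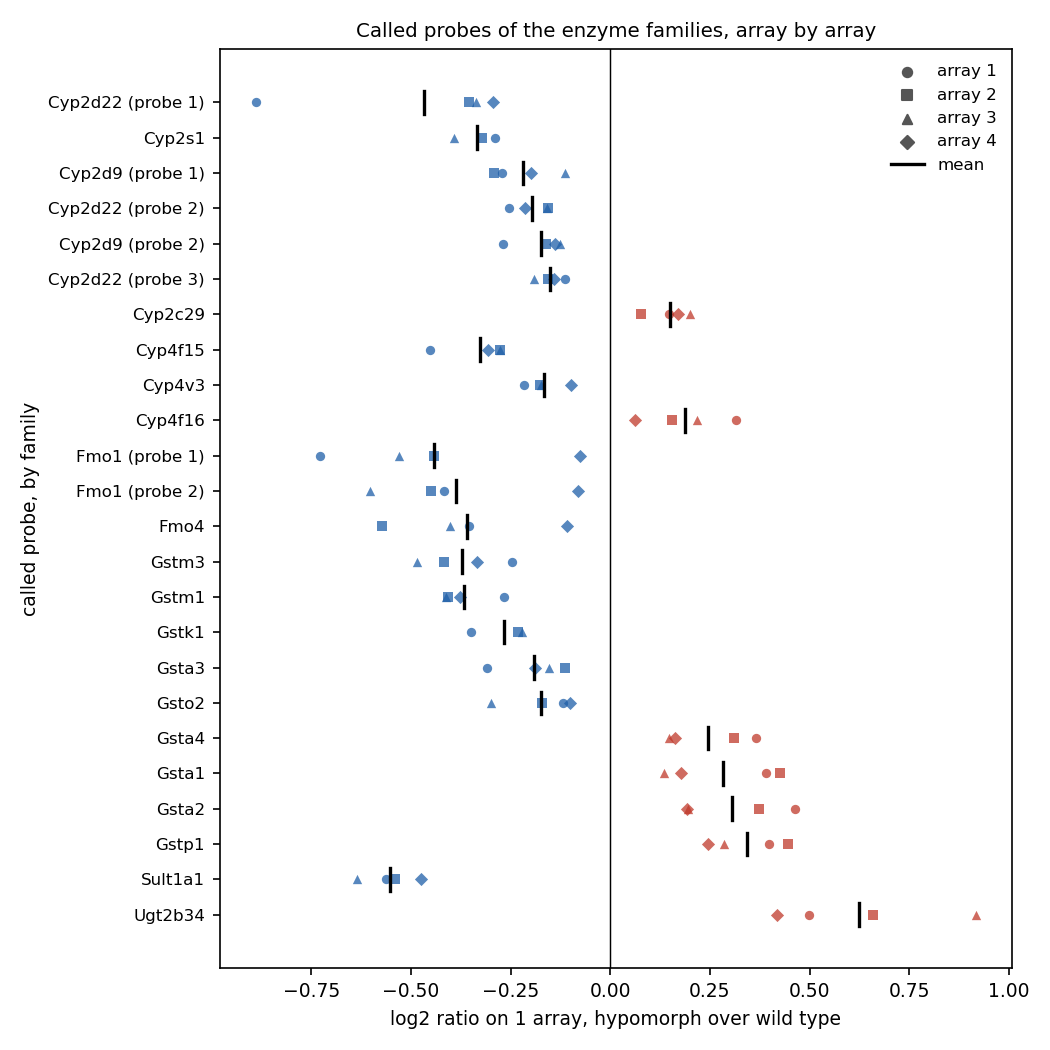
Log2 ratio of hypomorph over wild type (horizontal axis) on each array for called member probes, grouped by family, with a black bar at the mean. Values are after loess. Every point lies on the side of 0 of its mean, as a call on 3 or 4 arrays largely requires. Fmo1 and Fmo4 come nearest to 0 on array 4, and Gsta1, Gsta2 and Gsta4 are higher on arrays 1 and 2 than on arrays 3 and 4.

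Glutathione S-transferases, which join glutathione to electrophiles, were the most completely measured family, with 23 of 26 probes tested, and had 4 probes called higher and 5 lower. The higher ones were the 3 Gsta genes of chromosome 9 and Gstp1. Gsta genes encode the alpha class, which also reduces lipid peroxides. Gsta1 read 0.39, 0.43, 0.14 and 0.18 (0.28 ± 0.15, adjusted p = 0.0262), Gsta2 0.46, 0.37, 0.19 and 0.19 (0.31 ± 0.13, adjusted p = 0.0182). Gsta4, which conjugates the lipid peroxidation product 4-hydroxynonenal, read 0.36, 0.31, 0.15 and 0.16 (0.25 ± 0.11, adjusted p = 0.0237). In all 3 genes arrays 1 and 2 were higher than arrays 3 and 4. The calls held under the 15 alternatives that kept all replicates, with ratios between 0.23 and 0.47, and ended without replicate 2 (adjusted p = 0.112, 0.0928 and 0.109) or replicate 3 (0.0522, 0.0508 and 0.0599).

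The medians of 7 ciliated cell markers had a like order over the arrays, at 0.61, 0.36, 0.03 and 0.06 on arrays 1 to 4. Of these markers, 1 was called higher (Tubb4b, 0.37 ± 0.21, n = 3), and at an unadjusted p under 0.05 in limma's test 4 were higher and 0 lower. Foxj1, the master regulator of motile cilia, was not called at 0.28 ± 0.25. Arrays 1 and 2 also lay further from 0 than arrays 3 and 4 for Fgf8 (-0.31, -0.23, -0.09 and -0.09). The same held for the hepatocyte marker medians (-0.39, -0.34, -0.16 and -0.14), which lay below 0 as Fgf8 did. The lung epithelial marker medians did not have this order (-0.06, 0.00, 0.10 and 0.09). The part of ciliated cells in the Gsta ratios was not tested.

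Gsta1 and Gsta2 are printed because they are copies of each other, so that their probes may not separate them. Their upstream sequences, from RefSeq (GRCm38.p6), matched at 108 of 120 aligned bases (90%). The Gsta1 stretch is chr9:78230554-78230673 on the plus strand and runs 5 bases past the start of transcription, and the Gsta2 stretch is chr9:78347146-78347265 on the minus strand. Capitals mark the bases that differ between the pair or have no partner.
Gsta1: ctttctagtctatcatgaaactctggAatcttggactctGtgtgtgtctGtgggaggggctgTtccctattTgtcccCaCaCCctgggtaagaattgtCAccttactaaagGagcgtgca
Gsta2: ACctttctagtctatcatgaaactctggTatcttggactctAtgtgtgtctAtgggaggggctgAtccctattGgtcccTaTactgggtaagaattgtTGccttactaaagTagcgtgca
Both hold GCGTG, the core letters of the site that the aryl hydrocarbon receptor binds, close to the start. Over 85 member genes with a promoter window (250 bases before to 50 after the start), GCGTG on either strand was in 19, or 22.4%, against 35.2% of 27025 genes. It was in 4 of 6 genes called higher (Gsta1, Gsta2, Gstp1 and Cyp4f16), in 2 of 11 called lower (Gstm1 and Cyp4v3) and in 10 of 41 tested and not called. TGACNNNGC, the core letters bound by NRF2, the regulator of antioxidant genes, was in 8 of the 85, or 9.41%, against 14% of all genes. It was in 0 of the 6, in 1 of the 11 (Gsta3) and in 5 of the 41. These are matches of letters, not binding sites.

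Gstp1, the pi class enzyme abundant in epithelia, was higher at 0.40, 0.44, 0.29 and 0.24 (0.34 ± 0.09, adjusted p = 0.0079), with intensities of 12.98, 12.87, 12.99 and 12.85 in the hypomorph, against 12.58, 12.43, 12.71 and 12.60 in the wild type. The genotypes did not overlap. The call held under the 15 alternatives with all replicates and just missed without replicate 2 (adjusted p = 0.0522). A brighter Gstp1 probe was not tested because the scanner software marked its spots as outliers on all but 1 array. With marked spots kept it read -0.04, 0.09, -0.01 and 0.01 (0.01 ± 0.06, adjusted p = 0.858), so the 2 Gstp1 probes disagree.

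Of the mu class, 7 genes in a row on chromosome 3 were tested with 9 probes, and Gstm1 and Gstm3 were called lower after loess. Gstm1 read -0.27, -0.41, -0.41 and -0.38 (-0.37 ± 0.07, adjusted p = 0.00518) but 0.21 after median centring (adjusted p = 0.051). Gstm3 read -0.25, -0.42, -0.48 and -0.33 (-0.37 ± 0.10, adjusted p = 0.00725) but 0.10 after median centring (adjusted p = 0.355), and was not called without replicate 2 (adjusted p = 0.052). Relative to the median of all probes under that setting, Gstm1 was at 0.11 and Gstm3 at -0.00. The other Gstm1 probe was below 0 on all arrays and not called (-0.13 ± 0.08, adjusted p = 0.0889), and stood at 0.07 after median centring. The remaining Gstm genes lay between -0.11 and 0.16, and none was called after loess.

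The other lower Gst probes each depended on a setting or on a probe. Gstk1, a kappa class enzyme of mitochondria and peroxisomes, was at -0.27 ± 0.07 (n = 3, adjusted p = 0.0264) after loess and at 0.13 after median centring. Gsta3, on chromosome 1 and apart from its relatives on chromosome 9, was at -0.19 ± 0.08 (adjusted p = 0.0354) by one probe after loess and at 0.04 after median centring. Its other probe, which lies just upstream of that one, was at 0.01 ± 0.05 after loess and was called higher after median centring (0.23). Gsto2, an omega class enzyme that reduces dehydroascorbate, was at -0.17 ± 0.09 by one probe (adjusted p = 0.0498) and at -0.13 ± 0.12 by the other, which was not called. After median centring the calls were the other way round, at -0.09 and -0.28, below 0 in both. The Gsto2 call after loess was lost under 7 of the 15 alternatives that kept all replicates, median centring among them. The Gsta3 and Gsto2 calls ended without replicate 2, without replicate 3 and without replicate 4 (adjusted p between 0.0797 and 0.173). Gsto1, next to Gsto2, was left untested for marked spots, and with those kept read -0.12, -0.17, -0.32 and -0.46 (-0.27 ± 0.15, adjusted p = 0.0302). The theta class, which acts on small halogenated compounds, had 4 tested probes between -0.04 and 0.14 and none called after loess. After median centring, Gstm2 (0.27), Gstt2 (0.19) and Gstz1 (0.22) were called higher although they lay at -0.11, -0.04 and -0.03 after loess. Gstt3, at 0.14 after loess, was called higher there too (0.44).

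Among the sulfotransferases, Sult1a1, which sulfates phenols such as paracetamol and oestrogens, was the only 1 of 6 tested probes that was called. It read -0.56, -0.54, -0.63 and -0.47 on arrays 1 to 4, with log2 intensities of 13.67, 13.67, 13.63 and 13.76 in the hypomorph, against 14.23, 14.21, 14.27 and 14.23 in the wild type. All hypomorph pools thus lay below all wild type pools, and the difference was 1.47-fold (-0.55 ± 0.07, adjusted p = 0.00178, the smallest among the members). The call held without any 1 replicate (adjusted p at most 0.0239), and after median centring the ratio was -0.18 and missed (adjusted p = 0.0678). Sult2b1, which sulfates cholesterol (0.10 ± 0.10), Sult5a1 (-0.11 ± 0.14), Sult1c2 (0.06 ± 0.15) and Sult4a1 (0.03 ± 0.12) were not called. After median centring Sult5a1 stood at 0.15 and Sult1c2 at -0.12, also not called. Sult1b1, Sult1d1 and Sult3a1 were at background in both genotypes.

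Glucuronosyltransferases were mostly below detection, with 16 of 21 probes not tested. Ugt2b34, of a subfamily that conjugates steroids and phenols, was the 1 called probe of the family and had the largest change among the tested members. It read 0.50, 0.66, 0.92 and 0.42, with log2 intensities of 7.97, 8.13, 8.29 and 7.73 in the hypomorph, against 7.47, 7.47, 7.37 and 7.31 in the wild type. Every hypomorph pool lay above every wild type pool, and the difference was 1.54-fold (0.62 ± 0.22, adjusted p = 0.0067). It held under all 19 alternatives, with ratios between 0.53 and 0.87, and its highest adjusted p on leaving out a replicate was 0.0489. The other tested Ugt probes were not called, at 0.13 ± 0.11 and 0.05 ± 0.14 for Ugt8a, which makes myelin galactolipids, 0.10 ± 0.17 (n = 3) for Ugt2a3, and 0.04 ± 0.08 for a probe of the Ugt1a locus. After median centring the first Ugt8a probe (-0.08), Ugt2a3 (-0.14) and this Ugt1a probe (-0.10) were below 0, also not called. A bright second probe of that locus, which is named for the whole locus on the array and for Ugt1a6b through its accession, had marked spots, and with those kept was at 0.12 ± 0.10 (adjusted p = 0.125). The Ugt2b34 probe lies at chromosome 5, 87965089 to 87965148, in a cluster of 11 member genes of which only Ugt2a3 was also tested.

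The 59 untested member probes comprised 44 that were not well above background on any array in either genotype, 10 that were so on 1 or 2 arrays, and 5 that were bright but had marked spots. For 31 of the 102 genes no probe was tested, among them 10 of 34 Cyp2 genes and 10 of 14 Ugt genes. No tested member was at background in 1 genotype only. Where a gene had several tested probes, as 15 did, all were called in 3 genes (Cyp2d22, Cyp2d9 and Fmo1), some in 4 (Cyp4f16, Gsta3, Gstm1 and Gsto2) and none in 8.

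The genes around these enzymes, each by its brightest probe, are read against 26.6% of 20613 genes called, 13.6% higher and 13.0% lower. Transporters of drugs and organic ions had 0 higher and 8 lower of 18 tested (0 and 10 at an unadjusted p under 0.05), with a median of -0.14. Slc47a1, which exports organic cations, read -0.95, -0.68, -0.79 and -0.62 (-0.76 ± 0.14, adjusted p = 0.00181). The prostaglandin transporter Slco2a1 read -0.61, -0.72, -0.55 and -0.59 (-0.62 ± 0.07, adjusted p = 0.00147). After median centring Slc47a1 was at -0.56 and Slco2a1 at -0.19, just within the threshold (adjusted p = 0.0499). Slco2b1 (-0.44 ± 0.10, and -0.21 after median centring) was lower too, as was Slco3a1 (-0.38 ± 0.03), which stood at 0.08 after median centring. Abcc3, an exporter of glucuronides that was picked after its values were seen, was also lower (-0.50 ± 0.15). The multidrug exporters Abcb1a and Abcb1b were not called, at -0.04 ± 0.10 and 0.01 ± 0.08.

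**Figure D4:**
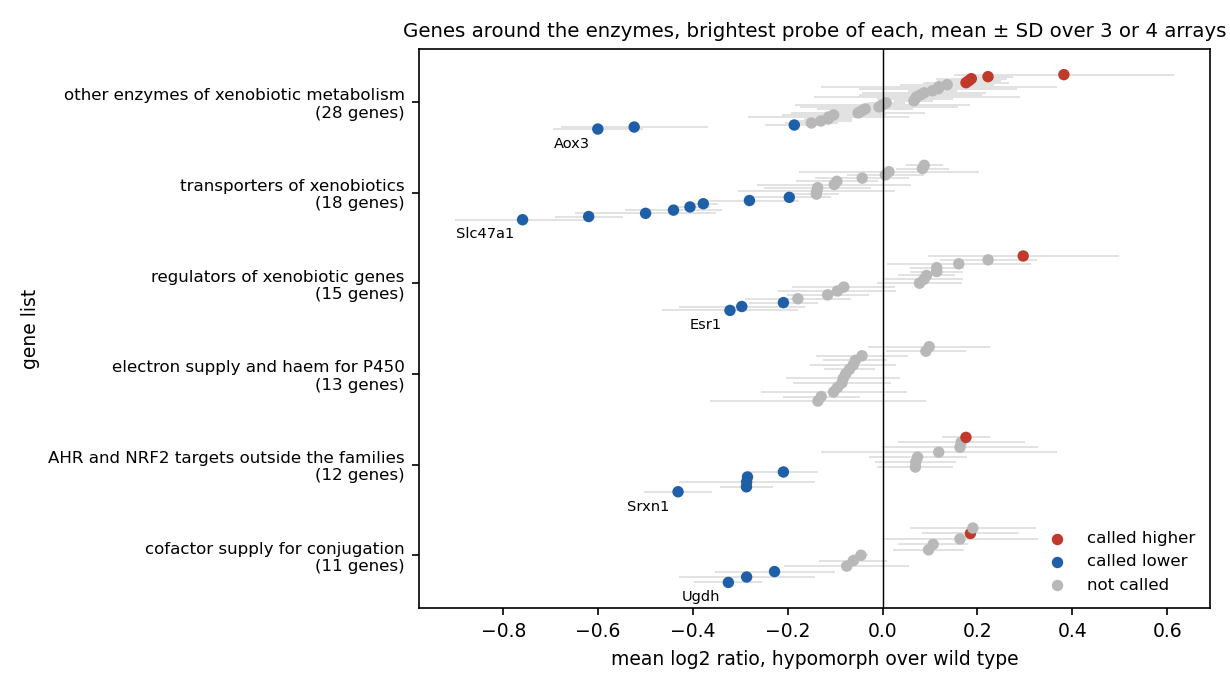
Mean log2 ratio of hypomorph over wild type (horizontal axis) of the tested genes of 6 lists around the enzymes, with the SD over 3 or 4 arrays as a grey line, red where called higher, blue where called lower, and the lowest called gene of each list named. After loess all 8 called transporters lie below 0, from -0.76 to -0.20 (Slco3a1 was at 0.08 after median centring), and the 13 genes of electron supply and haem lie between -0.14 and 0.10 with none called.

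Other enzymes of drug metabolism had 5 higher and 3 lower of 28. The aldehyde oxidases Aox3 (-0.63, -0.63, -0.67 and -0.46, or -0.60 ± 0.10, adjusted p = 0.00191) and Aox1 (-0.72, -0.54, -0.35 and -0.48, or -0.52 ± 0.16, adjusted p = 0.00542), neighbours on chromosome 1, were lower on every array, and were at -0.40 and -0.34 after median centring. The carbonyl reductase Cbr1 (0.22 ± 0.05, and 0.56 after median centring) and the carboxylesterase Ces2e (0.38 ± 0.23) were higher, and both calls ended without replicate 2 (adjusted p = 0.0891 and 0.118) or replicate 3 (0.0756 and 0.102). None of 13 genes for the electron supply and haem of P450 enzymes was called by limma, 0 had an unadjusted p under 0.05, and their median was -0.08. After median centring 10 of them were called higher, in a setting where 10997 of all 29991 tested probes were called higher.

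Cofactor supply had 1 higher and 3 lower of 11. Ugdh, which makes UDP-glucuronic acid for the Ugt enzymes, was at -0.33 ± 0.07 (adjusted p = 0.00725) after loess and at 0.08 after median centring, and was not called without replicate 2 (adjusted p = 0.052). Gclc, the catalytic subunit of the first enzyme of glutathione synthesis, was at -0.29 ± 0.14 after loess and at 0.05 after median centring, and was not called without replicate 2 (adjusted p = 0.105) or replicate 4 (0.0744). Slc35d1, a carrier of UDP-glucuronic acid, was at -0.23 ± 0.13, and the call was lost without any 1 replicate (adjusted p between 0.0552 and 0.133) and after median centring (-0.10). Ggt5, which cleaves glutathione conjugates, was higher at 0.19 ± 0.10 (0.36 after median centring) and lost its call without replicate 2, 3 or 4 (adjusted p between 0.13 and 0.17). It also lost its call under 5 of the 15 alternatives that kept all replicates.

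Regulators of xenobiotic genes had 1 higher and 3 lower of 15. The aryl hydrocarbon receptor Ahr was at -0.30 ± 0.13 after loess, not called without replicate 2, 3 or 4 (adjusted p between 0.0551 and 0.0914), and at 0.09 after median centring. The oestrogen receptor Esr1 (-0.32 ± 0.14) and Ahrr, the repressor of the aryl hydrocarbon receptor (-0.21 ± 0.07), were lower. Both calls ended without replicate 2 (adjusted p = 0.0888 and 0.105) or replicate 3 (0.0618 and 0.0829). Nr1i3, the nuclear receptor CAR, was higher (0.30 ± 0.20, adjusted p = 0.0418), but not called without replicate 2, 3 or 4 (adjusted p between 0.0604 and 0.154). It also lost its call under 4 of the 15 alternatives that kept all replicates, median centring among them (0.14, adjusted p = 0.248). The probes of Nr1i3 and Esr1 were close to background, at mean log2 intensities of 6.84 and 6.83. Over the alternatives that kept all replicates their ratios ran from 0.14 to 0.60 and from -0.86 to -0.30.

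Targets of the aryl hydrocarbon receptor and of NRF2 outside the families had 1 higher and 5 lower of 12, Gclc and Ahrr being counted in this list as well. Srxn1, which repairs peroxiredoxins, was lower (-0.35, -0.42, -0.43 and -0.52, or -0.43 ± 0.07, adjusted p = 0.00345), and was at -0.24 after median centring. Tiparp, a target and inhibitor of the aryl hydrocarbon receptor, was lower after loess with ratios of -0.27, -0.28, -0.29 and -0.29 (adjusted p = 0.00671), but was at -0.00 after median centring and not called there. Osgin1 was lower at -0.29 ± 0.06 and not called without replicate 3 (adjusted p = 0.0505) or after median centring (-0.14, adjusted p = 0.108). Nqo1, the usual readout of NRF2, was not called at 0.07 ± 0.08.

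Markers of cell types that express these enzymes moved in both directions. Of 11 club cell markers on the array 9 were tested, and Scgb1a1 and Scgb3a2 were not. Of the 9, 2 were called higher and 3 lower, with a median of -0.01, Fmo2 and Cyp4b1 being among them. Cbr2, a carbonyl reductase of club cells, was higher (0.45 ± 0.07), and Scgb3a1, a secretoglobin of the airways, was lower (-0.86 ± 0.58). Hepatocyte markers, of which 12 of 19 on the array were bright enough to be tested, had 0 higher and 5 lower (1 and 7 at an unadjusted p under 0.05) with a median of -0.28, and Ahsg was the lowest at -1.22 ± 0.64, whereas Alb was at 0.01 ± 0.41. Endothelial markers had 1 higher and 3 lower of 6 tested, lung epithelial markers 1 and 1 of 8, and blood and macrophage markers 0 and 1 of 4. The lung epithelial list had 10 genes on the array, of which Sftpc and Sftpd were not tested. The medians of the hepatocyte markers were -0.39, -0.34, -0.16 and -0.14 on arrays 1 to 4. Mean log2 intensities were 15.2 to 15.5 for Cldn5, Kdr and Cdh5, the endothelial markers called lower, and 12.3 for Tek, called higher. Among the hepatocyte markers called lower they were 6.4 for Apob, 7.6 for Hpx, 7.7 for Ahsg, 8.8 for Itih3 and 15.0 for Trf. The Apob probe was close to background. Marker values other than those of Fmo2, Cyp4b1 and Cyp2f2 are given after loess only. The part of cell makeup in the enzyme ratios was not tested.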

How the data were processed

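The submitters' processing notes name Agilent Feature Extraction 9.5.1. Per the file headers, the deposited spot and background intensities are unprocessed, while the processed intensities were background-subtracted and dye-normalized by that software. Per the file headers, the log10 ratios that the authors deposited are of processed red (hypomorph) over green (wild type). The deposited log2 values of the series table equal the log2 of processed red over green, which settles their scale, centring and direction, and were used as an alternative. The 4 arrays lay on 1 slide and were scanned together, so no block applied.

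Here mean intensities were corrected with normexp (offset 50) and normalized within arrays by loess (span 0.3) in limma 3.58.1 under R 4.3.3. Control spots and spots marked as outliers were left out, and spots of a probe averaged. Tested probes had values on 3 or more of the 4 arrays and were well above background on 3 or more, in either channel. An intercept was fitted with lmFit and eBayes, with Benjamini-Hochberg adjustment over 29991 probes. The number of arrays limits the precision.

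Names were updated through RefSeq accessions (GRCm38.p6) for 24490 of 41174 probes, and promoters were matched by symbol for 85 of 102 genes. Positions are those of the files, in mm8. The members and gene lists were chosen with earlier results of these data known. Genes named are Fgf8, up to 5 genes per family and 4 per list with the smallest p, and genes whose probes disagree; other members and Abcc3, Abcb1a, Abcb1b, Nqo1 and the markers were named after their values were seen. On 10 simulated tables of 27139 probes with 200 changed, 23.7% of 1.25-fold and 68.6% of 1.5-fold changes were called, 3.65% of calls were false and 0 had the wrong sign. The simulated noise was independent and normal without dye effects, and few probes were changed, whereas 24.9% of tested probes were called here. These rates therefore do not describe the calls given above. The alternatives are given in the closing section. The own values of 1 member gene are not reported here, in the text or the figures, though the counts include it.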

Additional observations from a re-analysis of the deposited data

Results flagged for a closer look

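In 5 of 80 member probes with values on 4 arrays, 1 array lay far from the other 3, which chance alone gives in about 1 of 20 groups, and 4 of the 5 concerned array 1. The Cyp2d22 probe at 82203253 on chromosome 15 read -0.89 on array 1, against a median of -0.34 on the others, and is the only called probe among them. Cyp4a12a read 0.126 on array 1, against -0.10 on the others. Gstt2 read -0.163 on array 1, against 0.01 on the others. Sult5a1 read -0.314 on array 1, against -0.03 on the others. Sult1c2 read -0.173 on array 3, against 0.12 on the others. Array 1 also had the widest spread of ratios over all probes (SD 0.335, against 0.209 to 0.241 on the other arrays).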

How the results depend on the processing

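Beside the main processing, 15 alternatives and the leaving out of each of the 4 replicates were run. The 7 member probes called higher became 17 with median centring in place of loess, and between 1 and 5 on leaving out a replicate. Over all 29991 tested probes, median centring took the higher calls from 3803 to 10997 and the lower calls from 3665 to 3815. The 18 called lower became 11 with the processed signals, 11 with median centring, and between 4 and 16 on leaving out a replicate. Of the genes of the other lists, the 8 called higher became 5 with plain background subtraction, 47 with median centring, and between 0 and 9 on leaving out a replicate, and the 20 called lower between 10 and 20. Over all probes, 7468 calls became 14812 with median centring, 1617 without replicate 2 and 2333 without replicate 3, and 4596 without replicate 4. Without replicate 2 or replicate 3, limma called 0 of these genes higher, and 8 and 9 had an unadjusted p under 0.05. Among genes called in at least 1 of the settings compared, median centring turned these signs: Ugdh to 0.0822, Cyp2s1 to 0.148, Slco3a1 to 0.0848, Gstm2 to 0.266, Gstt2 to 0.193, Gclc to 0.0549, Ahr to 0.0924, Gstm3 to 0.0986, Gstk1 to 0.125, Gstm1 to 0.213, Gsta3 to 0.037, Cyp4v3 to 0.0488 and Gstz1 to 0.223, and the cause was not tested. The median of all tested probes was 0.1 in that setting. Ugdh, Slco3a1, Gclc, Ahr, Gstm3, Gsta3 and Cyp4v3 thus still lay below the typical probe, although their signs turned. Signs of genes called in neither setting turned too, under this and other alternatives, such as Cyp2f2 at -0.0633 and Sult1c1 at -0.0263 in the deposited series table. The calls of Cyp4f15 and Ugt2b34 held under all 19. Probes near background, such as that of Cyp4f15, have ratios whose size depends on the background correction. No paired analysis was possible because each array holds 1 pool of each genotype, so that its ratio already is the pair.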
